A study of Rattus norvegicus with 4 samples.

Results

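The genes described here encode the machinery that carries secretory proteins into the endoplasmic reticulum (ER) and onward between the ER and the Golgi. They were chosen by symbol: the subunits of the signal recognition particle (SRP), the Sec61 channel with Sec62 and Sec63, the translocon-associated protein (TRAP) complex, the signal peptidase, the COPII coat, the Sec22 family, the p24 cargo receptors of the Tmed family and the COPI coat. Of 51 symbols that matched, 47 had a mean of at least 1 TPM (transcripts per 1000000) and were kept, among 11960 genes above that level and 23360 symbols listed in all. The kept gene with the lowest mean was Copz2, at 2.22 TPM. Below the limit lay Sec31b with a mean of 0.656 TPM, Sec16b with 0.189 TPM, Tmed6 with 0.107 TPM and Tmed11, listed at 0 in all 4 samples.

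The samples were 4 cultures of a clone of INS-1, a rat insulinoma line that secretes insulin, 2 grown as a standard 2D monolayer and 2 bioprinted in the laminin-containing hydrogel GelXA LAMININK-411. All were kept in the same medium for 5 days, at passage 3, and are labelled as biological replicates. The question was how the step-by-step transport machinery differed between 3D bioprinted and 2D monolayer culture. A single tumour line limits the comparison, and printing, hydrogel and cell arrangement differ together between the groups and cannot be told apart. The values are messenger RNA per transcript, and in bulk RNA fewer cells of a kind and less RNA per cell cannot be told apart.

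All 11 beta-cell markers on a fixed list were present at 1 TPM or more on average. Some lay apart between the groups, such as Ins2 (13240 and 13340 TPM in 2D, 8957 and 9326 in 3D) and Pcsk2 (353 and 343.5 TPM in 2D, 542 and 530.5 in 3D), singled out after their values were seen. The most abundant, Ins1, ran the other way from Ins2 (114000 and 126500 TPM in 2D, 127500 and 137800 in 3D). The beta list summed to 148000 and 160900 TPM in 2D and 158400 and 171000 in 3D, overlapping between the groups. Of 3 alpha-cell markers only Gcg reached that level, at 41.9 and 73.9 TPM in the 2D cultures and 124 and 155 TPM in the 3D cultures, while Irx2 was listed at 0 throughout. The alpha list summed to 42.0 and 74.0 TPM in 2D and 124 and 155 TPM in 3D. Neither the 2 delta-cell markers nor Ppy averaged 1 TPM. Ctrb1 was the 1 of 5 acinar markers above that level (6.49 and 7.45 TPM in 2D, 5.755 and 5.765 in 3D). Kdr was the 1 of 4 endothelial markers (0.966 and 1.00 TPM in 2D, 1.27 and 1.48 in 3D) and Pdgfra the 1 of 4 fibroblast markers (1.90 and 1.87 TPM in 2D, 2.32 and 2.24 in 3D). None of 4 leukocyte markers reached it, and Ptprc was listed at 0. Transcripts encoded in the mitochondrial genome took 10.1% and 9.35% of TPM in 2D and 12.99% and 12.3% in 3D, and those of ribosomal proteins took 11.2% and 11.3% in 2D and 10.2% and 9.67% in 3D. The part of these shares and of the markers in the differences given here was not tested.

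As background, SRP binds the signal peptide of a nascent chain and docks the ribosome at the ER, where the Sec61 channel takes the chain across the membrane, TRAP assists, and the signal peptidase removes the signal peptide. COPII coats then bud vesicles from ER exit sites, p24 receptors select cargo, the SNARE protein Sec22b takes part in fusion, and COPI coats return proteins from the Golgi. Preproinsulin enters this route in beta cells, which devote much of their protein synthesis to it.

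Several genes of the route are known targets of the unfolded protein response factors XBP1 and ATF6, so 3 motifs linked to these factors were looked for on both strands of the RefSeq promoter windows of build GRCr8. A window runs from 250 bases before to 50 bases after a gene's start site, and 43 of the 47 members had at least 1. The UPRE motif TGACGTGG was in 199 of 33469 windows (0.595%), and in those of 87 of 8792 tested genes with a window (0.99%). It was in the windows of 4 of the 43 members, Copa, Copb1, Sec23a and Srp19. The ERSE motif, CCAAT and CCACG separated by 9 bases, was in 22 windows (0.0657%) and ERSE-II, ATTGG and CCACG separated by 1 base, in 17 (0.0508%), none of them a member's. The reverse strand of UPRE shares the letters CCACG with both. In Copa the match lay wholly in transcribed bases, 31 to 38 after the start site, and in Copb1 it spanned the start site. The other matches are shown with their surroundings, because these are the members with the motif upstream of the start, 1 higher and 1 lower in 3D culture. Capitals mark the motif, which reads as its reverse complement in Srp19.
Sec23a, chr6:82440968-82441015, minus strand: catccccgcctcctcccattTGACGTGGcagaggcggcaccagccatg
Srp19, chr18:26205713-26205760, plus strand: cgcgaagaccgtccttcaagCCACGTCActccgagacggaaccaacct
The motif begins 91 bases before the start site in Sec23a and 155 bases before it in Srp19. A match describes the letters and is not a measured binding site.

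Levels are given as scaled TPM, the deposited TPM divided by a factor per sample (1.011 and 0.9601 in 2D, 1.008 and 1.023 in 3D), and always for replicate 1 and then replicate 2 of a group. TPM are per transcript length, so they can be compared between genes, and the values themselves do not show the sequencing depth. Mean levels ran from 975 scaled TPM for Sec61g to 2.22 for Copz2. Summed over the 47 members, the level was 6216 and 6356 scaled TPM in the 2D cultures and 5673 and 5788 in the 3D cultures. Sec61g alone gave 17.0% and 18.0% of the 2D sums and 14.6% and 15.05% of the 3D sums. Without Sec61g and Sec61b the sums were 4550 and 4545 in 2D and 4329 and 4393 in 3D. Both 3D cultures then still lay below both 2D cultures, but only after scaling, as the deposited TPM summed to 4598 and 4364 in 2D and 4362 and 4493 in 3D.

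**Figure D1:**
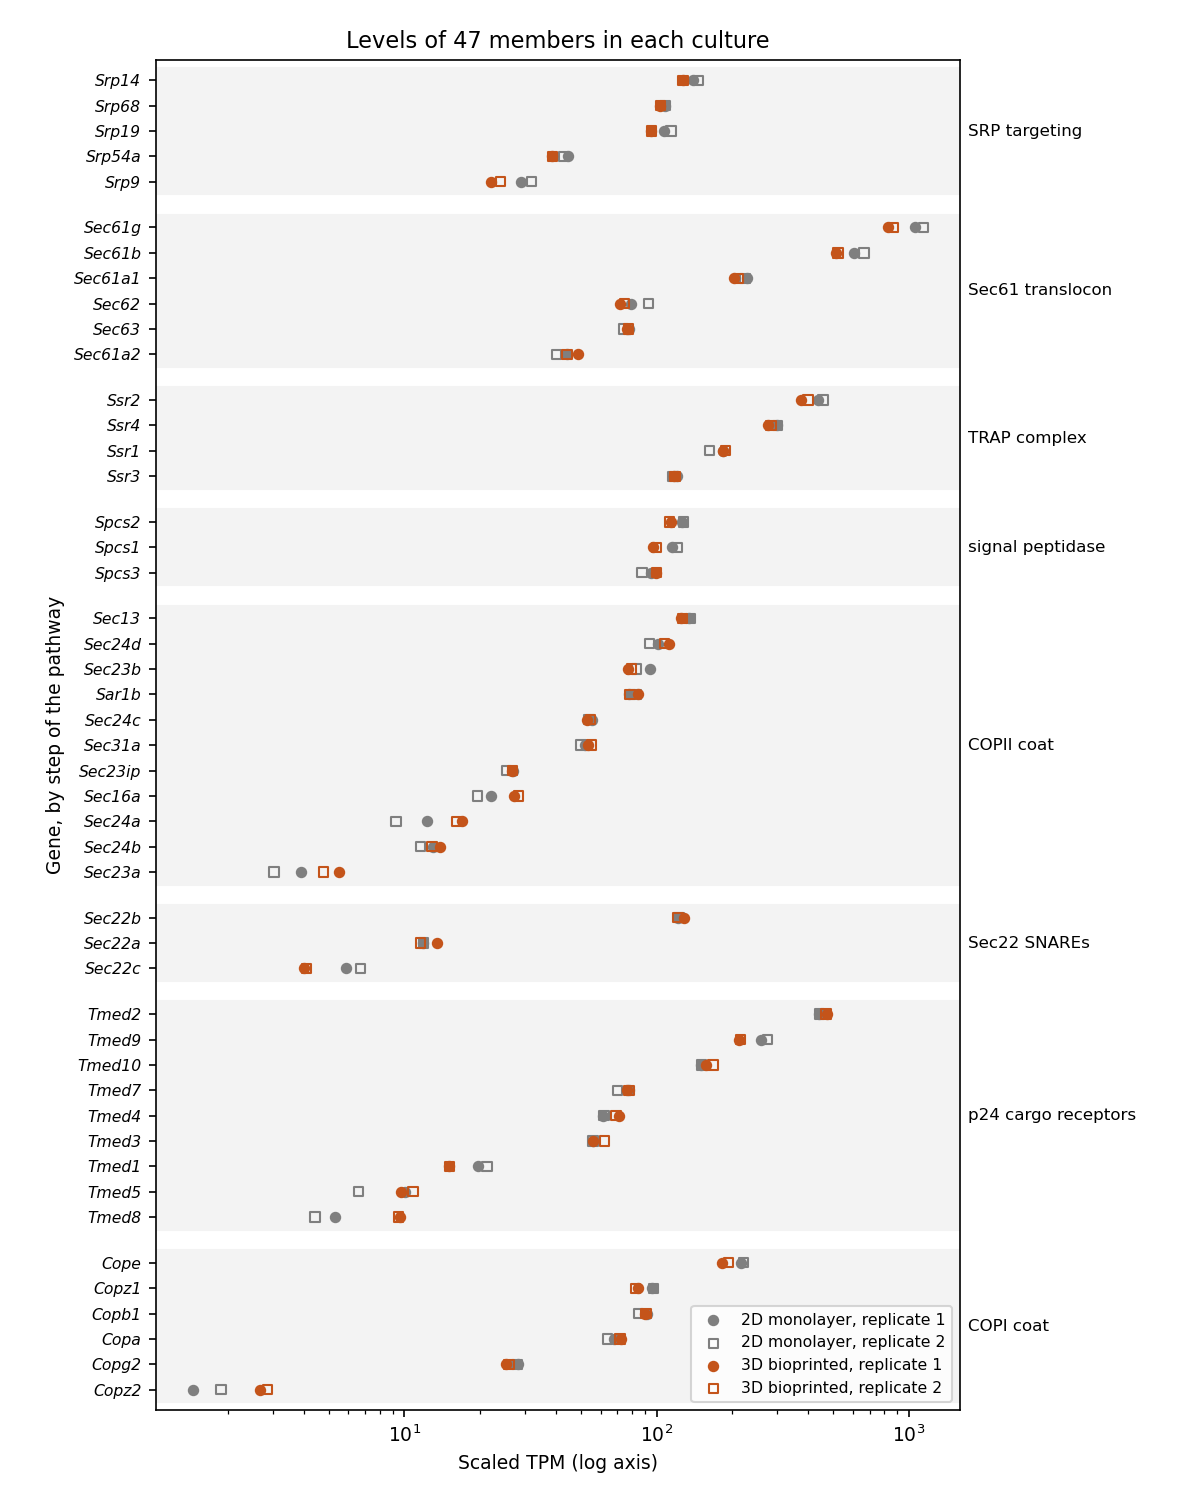
Scaled TPM (log axis) of each of the 47 members in the 4 cultures, ordered by step and, within a step, by mean level. Grey symbols are the 2D and orange symbols the 3D cultures, filled circles replicate 1 and open squares replicate 2. The orange symbols lie left of the grey ones for Sec61g (829 and 871 against 1056 and 1145) and right of them for Tmed8 (9.63 and 9.49 against 5.29 and 4.42).

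Differences were tested gene by gene with limma on log2(scaled TPM + 1), with Benjamini-Hochberg adjustment over all 11960 genes. Fold changes are 3D over 2D, and ± marks the standard error from limma. The added 1 makes fold changes of genes at low TPM too small. At an adjusted p below 0.05, 6 of the 47 members were higher in 3D culture (12.8%, against 18.5% of all genes tested) and 11 were lower (23.4%, against 19.4%). In either direction this was 36.2% of the members and 37.9% of all genes, so the share called was close to the background and is not a result about the members. The 2 groups of cultures did not overlap in 34 members (72.3%, against 75.5% of all genes tested). The median log2 fold change was 0.02 over the members and -0.0031 over all genes tested. The members' median has no stable sign, at 0.06 without scaling, -0.02 without the filter and -0.014 without 2D replicate 2.

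The counts were also taken for the 2 ends of the route. Of the 18 members for entry into the ER (SRP, Sec61, TRAP and signal peptidase), limma called 0 higher and 6 lower (33.3%, against 19.4% of all genes tested). At an unadjusted p below 0.05 the counts were 0 and 10, against 2988 higher and 3066 lower of all 11960 genes tested. Of the 12 entry members with at least 100 scaled TPM, 5 were lower (41.7%), against 39.8% of all genes at that level. Of these 18, 14 had a negative log2 fold change, the median was -0.17, and both 3D cultures lay below both 2D cultures in 13 and above them in 2 (together 83.3% without overlap, against 75.5% of all genes tested). Of the 29 members for transport between ER and Golgi (COPII, Sec22, p24 and COPI), 6 were higher (20.7%, against 18.5% of all genes tested) and 5 lower (17.2%, against 19.4%), with a median of 0.07. There both 3D cultures lay above both 2D cultures in 11 members and below them in 8 (together 65.5% without overlap). The counts by step that follow are of 3 to 11 members each and are likewise to be read against 18.5% higher and 19.4% lower over all genes tested. For members with at least 100 scaled TPM the nearer measure is 11.7% higher and 39.8% lower, the shares of all genes at that level. Counts at an unadjusted p below 0.05 are to be read against the 2988 and 3066 given above. Summed, the entry members had 3902 and 4060 scaled TPM in 2D and 3393 and 3496 in 3D, whereas the transport members had 2314 and 2296 in 2D and 2280 and 2292 in 3D. The sums of the entry members lay apart between the groups, also in deposited TPM (3943 and 3898 in 2D, 3418 and 3575 in 3D). Sec61g and Sec61b are the largest parts of the entry sums. Without them the deposited sums of all members overlapped between the groups, as given above. Those of the transport members have no direction that holds without scaling, since in deposited TPM they were 2338 and 2204 in 2D and 2298 and 2345 in 3D. The difference between the 2 ends was not tested.

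**Figure D2:**
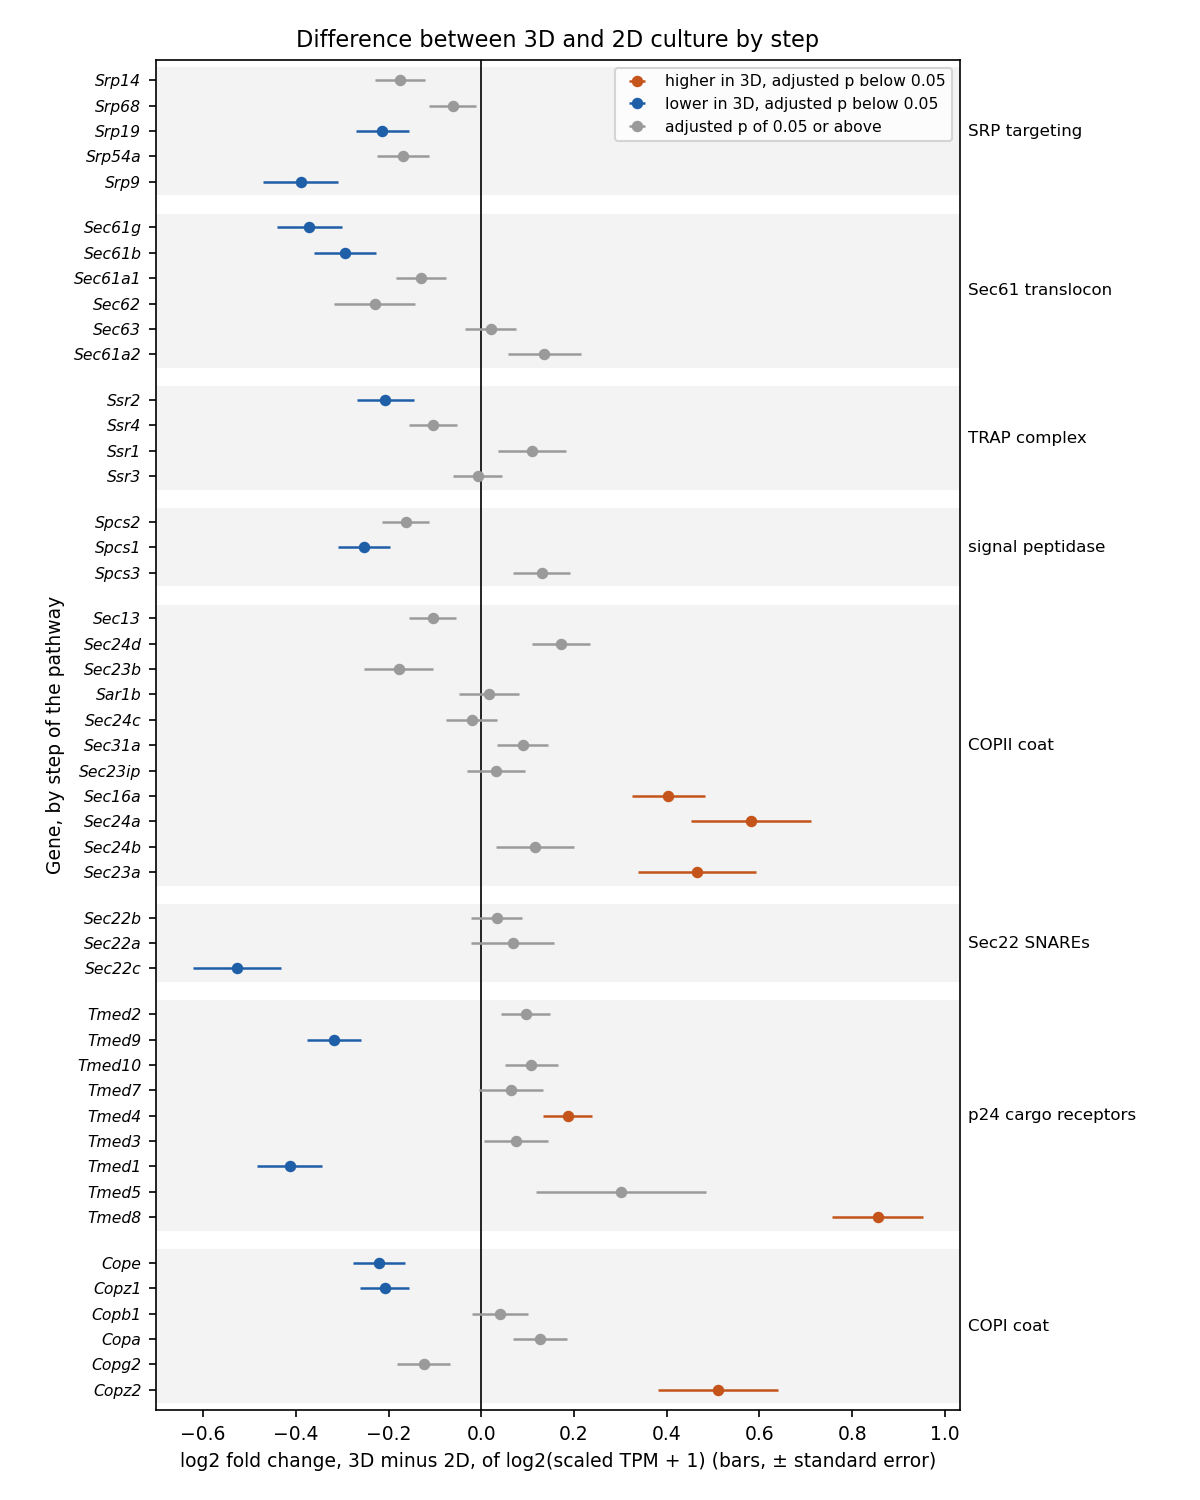
Log2 fold change of each of the 47 members (3D minus 2D, on log2(scaled TPM + 1)), with bars of ± 1 standard error from limma, by step and mean level. Orange points are the 6 members higher and blue points the 11 members lower in 3D culture at an adjusted p below 0.05. No orange point lies in the upper 4 steps, and blue points lie in each of them.

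The calls need both 3D cultures. With 3D replicate 1 left out, limma called no member and 108 of all genes tested, and with 3D replicate 2 left out it called no member and 633 genes. At an unadjusted p below 0.05, 4 members were then higher and 8 lower without replicate 1, and 5 higher and 9 lower without replicate 2. Without 3D replicate 1 and without 3D replicate 2, the log2 fold change was 0.84 and 0.86 for Tmed8 (0.85 with all cultures), and -0.33 and -0.45 for Srp9 (-0.39 with all cultures). Without 2D replicate 1 and without 2D replicate 2, it was 0.96 and 0.75 for Tmed8, and -0.46 and -0.32 for Srp9. All 17 called members kept their sign under every alternative and with each culture left out, and 9 of the 17 passed, at the same threshold, in every alternative that keeps all 4 cultures. At an adjusted p below 0.01 in limma only Tmed8 passed. With 1 culture left out the log2 fold change moved by over 1.5 times, or turned, in 0 of the 17 called members and in 19 of the 30 not called. The sign turned in 10 of these 19 (Copb1, Sar1b, Sec22a, Sec22b, Sec23ip, Sec24c, Sec63, Ssr3, Tmed3 and Tmed7), so the values given for them have no direction.

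Among the SRP subunits, 2 of 5 fell (40%, against 19.4% of all genes tested), 3 did not pass, and all 5 had a negative log2 fold change. Srp9, which with Srp14 forms the part of SRP that pauses elongation, had 29.0 and 32.0 scaled TPM in the 2D cultures and 21.96 and 24.1 in the 3D cultures. Both 3D cultures were below both 2D cultures, and the log2 fold change was -0.39 ± 0.080 (limma adjusted p = 0.0171). Its partner Srp14, the most abundant subunit, had 140.1 and 147 scaled TPM in 2D and 127 and 127 in 3D. The groups did not overlap here either, but the log2 fold change of -0.17 did not pass (limma adjusted p = 0.0522). Srp19, which assembles onto the SRP RNA and has the motif shown above, had 107 and 114 scaled TPM in 2D and 94.7 and 95.6 in 3D. It fell by 0.21 ± 0.057 on the log2 scale (limma adjusted p = 0.0351), and passed in 7 of 8 other settings. RefSeq lists 2 pseudogenes of Srp19 in GRCr8, so the division of its reads is also uncertain. The remaining subunits had log2 fold changes of -0.17 for Srp54a, the GTPase that binds the signal peptide, and -0.06 for Srp68. The step summed to 429 and 444 scaled TPM in 2D and 385 and 389.6 in 3D.

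The Sec61 step held the most abundant members and had a median log2 fold change of -0.18, with 2 of 6 members lower (33.3%, against 19.4% of all genes tested) and none higher (at an unadjusted p below 0.05, 3 and 0). Sec61g, the gamma subunit of the channel, had 1056 and 1145 scaled TPM in 2D and 829 and 871 in 3D. The lowest 2D culture was above the highest 3D culture, and the log2 fold change was -0.37 ± 0.070 (limma adjusted p = 0.0138). RefSeq lists 13 pseudogenes or like-named copies of Sec61g in GRCr8, so how its reads were divided among copies is uncertain. Sec61b, the beta subunit, had 609.6 and 665.5 scaled TPM in 2D and 514.5 and 524 in 3D. It too was lower in both 3D cultures, with a log2 fold change of -0.29 ± 0.066 (limma adjusted p = 0.0218).

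The pore-forming alpha subunit differed less. Sec61a1 had 229 and 224.5 scaled TPM in 2D and 202 and 212 in 3D, a log2 fold change of -0.13 that did not pass (limma adjusted p = 0.109). Its paralog Sec61a2 had 44.2 and 40.1 scaled TPM in 2D and 48.6 and 44.2 in 3D, overlapping between groups (log2 fold change 0.14, and 0.07 to 0.21 with 1 culture left out, limma adjusted p = 0.214). With the most abundant transcript alone, the log2 fold change of Sec61a2 was 0.04. Sec61a1 made up 83.8% and 84.9% of the pair in 2D and 80.6% and 82.7% in 3D. The shares did not overlap, with an exact two-sided permutation p of 0.33, the smallest that 2 cultures against 2 can give. Sec62 and Sec63 serve chains that are taken across after synthesis, and neither passed. Sec62 had 79.4 and 93.0 scaled TPM in 2D and 71.7 and 74.6 in 3D, and 2D replicate 2 stood above the rest (log2 fold change -0.23, and -0.34 to -0.12 with 1 culture left out, limma adjusted p = 0.0841, passing in 1 of 8 other settings). For Sec63 the log2 fold change was 0.02, with a 95% interval from -0.12 to 0.16. Without Sec61g and Sec61b the step summed to 430 and 432 scaled TPM in 2D and 399 and 408 in 3D.

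In the TRAP complex, which stays beside the channel and helps some chains with weak signal peptides, 1 of 4 members fell (25%, against 19.4% of all genes tested) and none rose (at an unadjusted p below 0.05, also 1 and 0). All 4 averaged above 100 scaled TPM, where 39.8% of all genes were lower. Ssr2, the beta subunit and the most abundant, had 436 and 457 scaled TPM in 2D and 375 and 399 in 3D. The groups did not overlap, but the call was close to the limit, with a log2 fold change of -0.21 ± 0.062 (limma adjusted p = 0.048) that passed in 2 of 8 other settings. Over those settings its adjusted p ran from 0.0485 to 0.0783. The log2 fold changes of the others were -0.10 for Ssr4, 0.11 for Ssr1 (0.02 to 0.20 with 1 culture left out) and -0.0078 for Ssr3, whose 95% interval ran from -0.14 to 0.13.

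The signal peptidase accessory subunits gave 1 lower member of 3 (33.3%, against 19.4% of all genes tested) and none higher (at an unadjusted p below 0.05, 2 and 0). Spcs1, a small membrane subunit outside the catalytic site, had 115 and 120.4 scaled TPM in 2D and 97.05 and 100.2 in 3D. Both 3D cultures were lower, by a log2 fold change of -0.25 ± 0.056 (limma adjusted p = 0.0205). Spcs2, the most abundant of the 3, had 126 and 128 scaled TPM in 2D and 114 and 113 in 3D. These groups also lay apart, with a log2 fold change of -0.16 just outside the threshold (limma adjusted p = 0.0528). Spcs3 ran the other way, at 94.9 and 87.6 scaled TPM in 2D and 99.6 and 100.2 in 3D, and did not pass (log2 fold change 0.13, and 0.07 to 0.19 with 1 culture left out, limma adjusted p = 0.141).

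The COPII step had 3 of 11 members higher (27.3%, against 18.5% of all genes tested) and none lower (at an unadjusted p below 0.05, 4 and 0), with a median log2 fold change of 0.09 (0.053 without the filter). All 3 were below 30 scaled TPM in every culture. Sec24a, a cargo-binding coat subunit, had 12.3 and 9.27 scaled TPM in 2D and 16.9 and 16.1 in 3D. Both 3D cultures lay above both 2D cultures, which differed from each other by about 3 scaled TPM, and the log2 fold change was 0.58 ± 0.13 (limma adjusted p = 0.0214). Without a filter on low values its adjusted p was 0.0649. Sec23a, the coat subunit that stimulates the GTPase Sar1 and the other gene with the motif shown above, had 3.87 and 3.04 scaled TPM in 2D and 5.49 and 4.79 in 3D. The groups did not overlap, the log2 fold change was 0.47 ± 0.13 (limma adjusted p = 0.038), and it passed in 5 of 7 other settings. Sec16a, the large scaffold of ER exit sites, had 22.1 and 19.5 scaled TPM in 2D and 27.25 and 28.3 in 3D. Each 3D culture was above each 2D culture, with a log2 fold change of 0.40 ± 0.078 (limma adjusted p = 0.0148) that passed in 8 of 8 other settings.

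The abundant COPII genes did not pass. Sec13, part of the outer coat and the most abundant of the step, had 135 and 136 scaled TPM in 2D and 125 and 127 in 3D (log2 fold change -0.10, limma adjusted p = 0.153). Sec23b, the major Sec23 here, had 94.5 and 83.5 scaled TPM in 2D and 77.3 and 79.5 in 3D (log2 fold change -0.18, limma adjusted p = 0.109). Its size depended on which 2D culture was kept, at -0.09 without 2D replicate 1 and -0.27 without 2D replicate 2 (limma adjusted p = 0.243 and 0.0377). In both genes the 3D cultures lay below the 2D cultures without the difference passing. Sec24d had 101 and 93.55 scaled TPM in 2D and 112 and 108 in 3D (log2 fold change 0.17, limma adjusted p = 0.0774, and 0.0494 at a minimum of 5 TPM). Sec24b had 12.99 and 11.6 scaled TPM in 2D and 13.9 and 12.9 in 3D, overlapping between groups (log2 fold change 0.12, and 0.04 to 0.19 with 1 culture left out, limma adjusted p = 0.313). Sec24c, at 55.4 and 53.9 scaled TPM in 2D and 52.9 and 54.9 in 3D, overlapped as well (log2 fold change -0.02, limma adjusted p = 0.786). The remaining COPII members, Sar1b, Sec23ip and Sec31a, had log2 fold changes from 0.02 to 0.09. Summed over its 11 members, the step had 593 and 569 scaled TPM in 2D and 595 and 591 in 3D.

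Within paralog pairs the composition of the COPII coat lay apart between the groups. Sec23a made up 3.94% and 3.52% of the Sec23 pair in 2D and 6.63% and 5.68% in 3D. Sec23b thus remained the main form in every culture. Sec24a made up 48.6% and 44.4% of the Sec24a and Sec24b pair in 2D and 54.85% and 55.6% in 3D. The larger share of that pair passed from Sec24b in both 2D cultures to Sec24a in both 3D cultures. Sec24c made up 35.4% and 36.6% of the Sec24c and Sec24d pair in 2D and 32.1% and 33.8% in 3D. For each pair the exact two-sided permutation p was 0.33, the smallest possible, so these shares are a description.

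The transcripts of 2 COPII genes, singled out after their values were seen, also differed in their shares. Of the Sec24c transcripts, ENSRNOT00000012270.4 took 61.7% and 85.4% of the gene's TPM in 2D and 49.1% and 37.3% in 3D. ENSRNOT00000084350.1 took most of the rest, 38.25% and 14.6% in 2D and 50.8% and 62.6% in 3D. The groups did not overlap, but the 2 2D cultures differed from each other by more than the gap between the groups. With the most abundant transcript alone, Sec24c had a log2 fold change of -0.75 (limma adjusted p = 0.0285), against -0.02 for the whole gene. Of the Sec31a transcripts, ENSRNOT00000091367.1 took 48.9% and 49.5% in 2D and 55.65% and 57.5% in 3D. With that transcript alone Sec31a had a log2 fold change of 0.29 (limma adjusted p = 0.0236), against 0.09 for the whole gene, which did not pass. How reads common to several transcripts of a gene are divided is an estimate of the quantification. For both genes the exact two-sided permutation p of the share was 0.33.

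**Figure D3:**
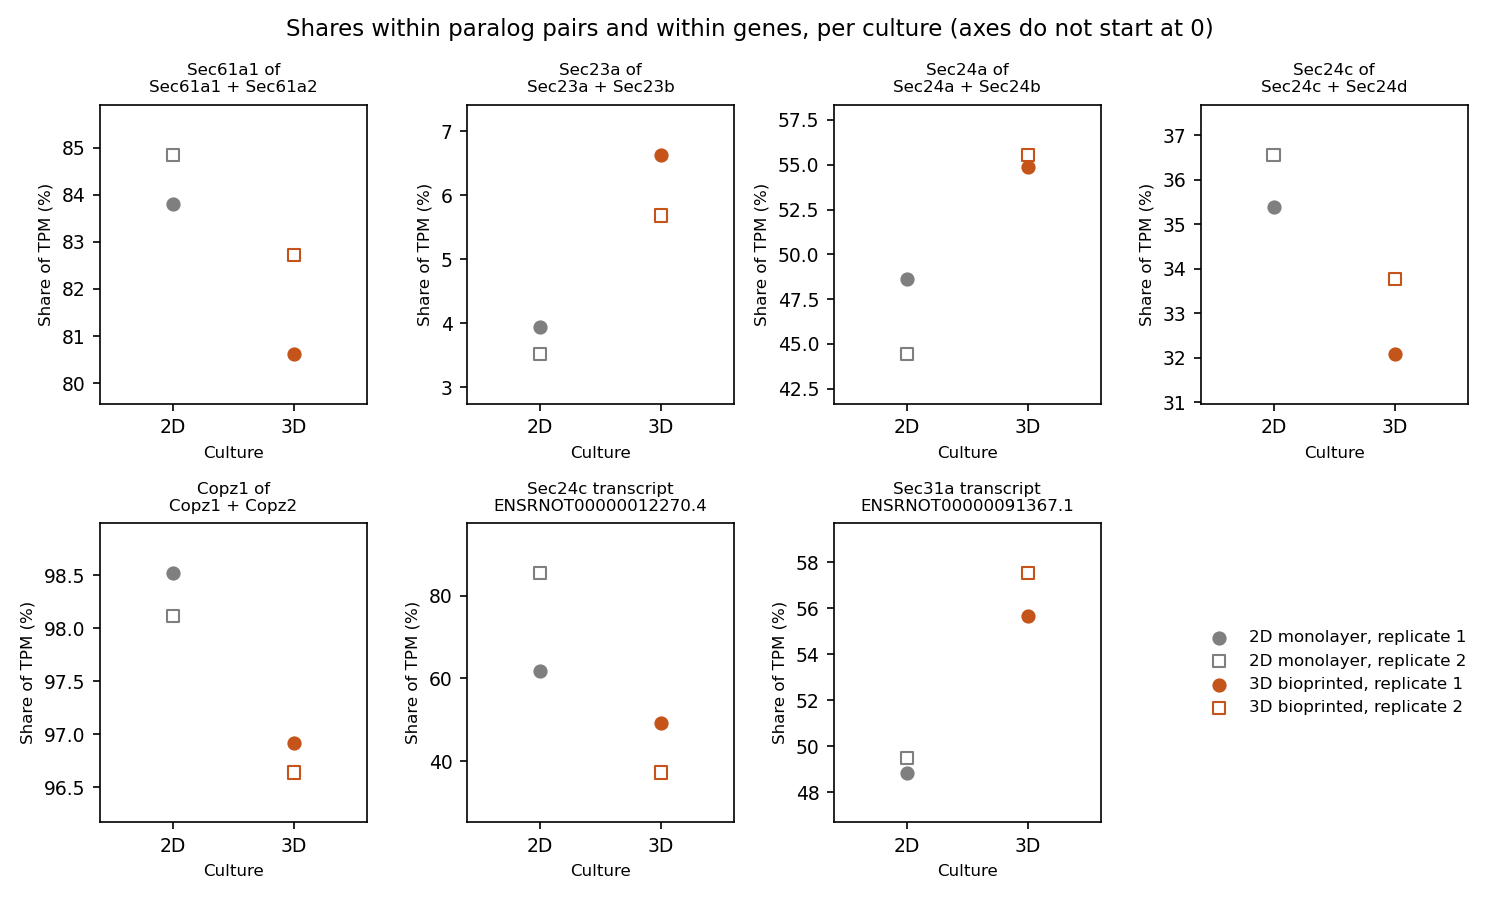
Share of TPM (%) in the 2D (grey) and 3D (orange) cultures, filled circles for replicate 1 and open squares for replicate 2, for the first gene of each of 5 paralog pairs and for the most abundant transcript of Sec24c and of Sec31a. In every panel both 3D cultures lie on one side of both 2D cultures, and the Sec24c replicates lie far apart in 2D, at 61.7% and 85.4%.

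In the Sec22 family 1 of 3 members fell (33.3%, against 19.4% of all genes tested). Sec22c, a family member located at the ER, had 5.87 and 6.68 scaled TPM in 2D and 3.99 and 4.09 in 3D. Both 3D cultures were below both 2D cultures, and its log2 fold change of -0.53 ± 0.096 was the lowest of the 47 members (limma adjusted p = 0.0125). Sec22b, the SNARE of ER and Golgi traffic and by far the most abundant of the family, had 121.5 and 122.7 scaled TPM in 2D and 128 and 122 in 3D. The groups overlapped, and the log2 fold change was 0.03, with a 95% interval from -0.10 to 0.17. Sec22a also overlapped, with a log2 fold change of 0.07.

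Of the 9 p24 members, 2 rose and 2 fell (22.2% each, against 18.5% and 19.4% of all genes tested), and the median log2 fold change was 0.10. With 1 culture left out this median ran from 0.062 to 0.15, and without the filter it was 0.059. Tmed8, which shares the GOLD domain of the family, had 5.29 and 4.42 scaled TPM in 2D and 9.63 and 9.49 in 3D. Its levels in both 3D cultures were well above those in both 2D cultures, and its log2 fold change of 0.85 ± 0.099 was the highest of the 47 members (limma adjusted p = 0.00519). It was the 1 member with an adjusted p below 0.01. Tmed4 had 61.15 and 62.0 scaled TPM in 2D and 71.3 and 69.1 in 3D. The groups lay apart by a small difference, a log2 fold change of 0.19 ± 0.054 (limma adjusted p = 0.0425) that passed in 4 of 8 other settings. Tmed4 has 1 named pseudogene in GRCr8.

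Tmed1 and Tmed9, cargo receptors of the same family, fell. Tmed1 had 19.6 and 21.3 scaled TPM in 2D and 15.0 and 15.1 in 3D, a log2 fold change of -0.41 ± 0.070 (limma adjusted p = 0.0106). Tmed9 had 259 and 275 scaled TPM in 2D and 212.5 and 215 in 3D, a log2 fold change of -0.32 ± 0.058 (limma adjusted p = 0.0126). In both genes the 3D cultures were close to each other and below both 2D cultures. Tmed2, which forms complexes with Tmed10 and was the most abundant member of the family, had 442 and 443 scaled TPM in 2D and 475 and 470.2 in 3D. Its 3D cultures were higher without passing (log2 fold change 0.10, limma adjusted p = 0.197), and Tmed10 had a log2 fold change of 0.11 (0.06 to 0.15 with 1 culture left out, limma adjusted p = 0.184). Tmed3, Tmed5 and Tmed7 overlapped between the groups. The rises and falls within the family left its sum at 1081 and 1089 scaled TPM in 2D and 1083 and 1098 in 3D.

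In the COPI coat 1 of 6 members rose (16.7%, against 18.5% of all genes tested) and 2 fell (33.3%, against 19.4%). The median log2 fold change of the step was -0.04, and 6.1e-04 without scaling between samples, so the step has no stable sign. Cope, the epsilon subunit and the most abundant, had 216 and 221 scaled TPM in 2D and 182 and 193 in 3D. Both 3D cultures were lower, with a log2 fold change of -0.22 ± 0.057 (limma adjusted p = 0.0314). The zeta subunit is encoded by Copz1 and Copz2, which moved in opposite directions. Copz1 had 95.8 and 97.45 scaled TPM in 2D and 84.5 and 82.5 in 3D, a log2 fold change of -0.21 ± 0.052 (limma adjusted p = 0.0291). Copz2 had 1.44 and 1.87 scaled TPM in 2D and 2.68 and 2.87 in 3D, a log2 fold change of 0.51 ± 0.13 (limma adjusted p = 0.0295). Neither pair of groups overlapped. Copz1 made up 98.5% and 98.1% of the pair in 2D and 96.9% and 96.6% in 3D, so Copz2 stayed a minor form. The calls of Cope and Copz1 each passed in 6 of 8 other settings and that of Copz2 in 6 of 7, the exceptions being no scaling and no trend for the first 2 and no filter for Copz2. Copa, Copb1 and Copg2 had log2 fold changes of 0.13 (0.08 to 0.17 with 1 culture left out), 0.04 and -0.12 and did not pass.

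The direction of a member's difference went with its level. Of the 10 most abundant members limma called 0 higher (also 0 at an unadjusted p below 0.05) and 5 lower (50%, against 39.8% of all genes with at least 100 scaled TPM). Of the 10 least abundant, 5 were higher (50%, against 18.5% of all genes tested) and 2 lower (20%, against 19.4%). The share of all genes at the level of these 10 is not given. Of the 28 members under 100 scaled TPM, 21.4% were higher and 14.3% lower, against 19.25% and 17.2% of all genes tested at that level. Across the 47 genes, Spearman's rho between level and log2 fold change was -0.41. Across all 11960 genes tested it was -0.22, and genes are not independent replicates. Of the 1201 genes tested with at least 100 scaled TPM, 11.7% were higher and 39.8% lower, with a median log2 fold change of -0.17. Of the 19 members at that level 0 were higher (1 at an unadjusted p below 0.05) and 7 were lower (36.8%), with a median of -0.13. The abundant members thus had a share called lower and a median near those of all abundant genes.

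**Figure D4:**
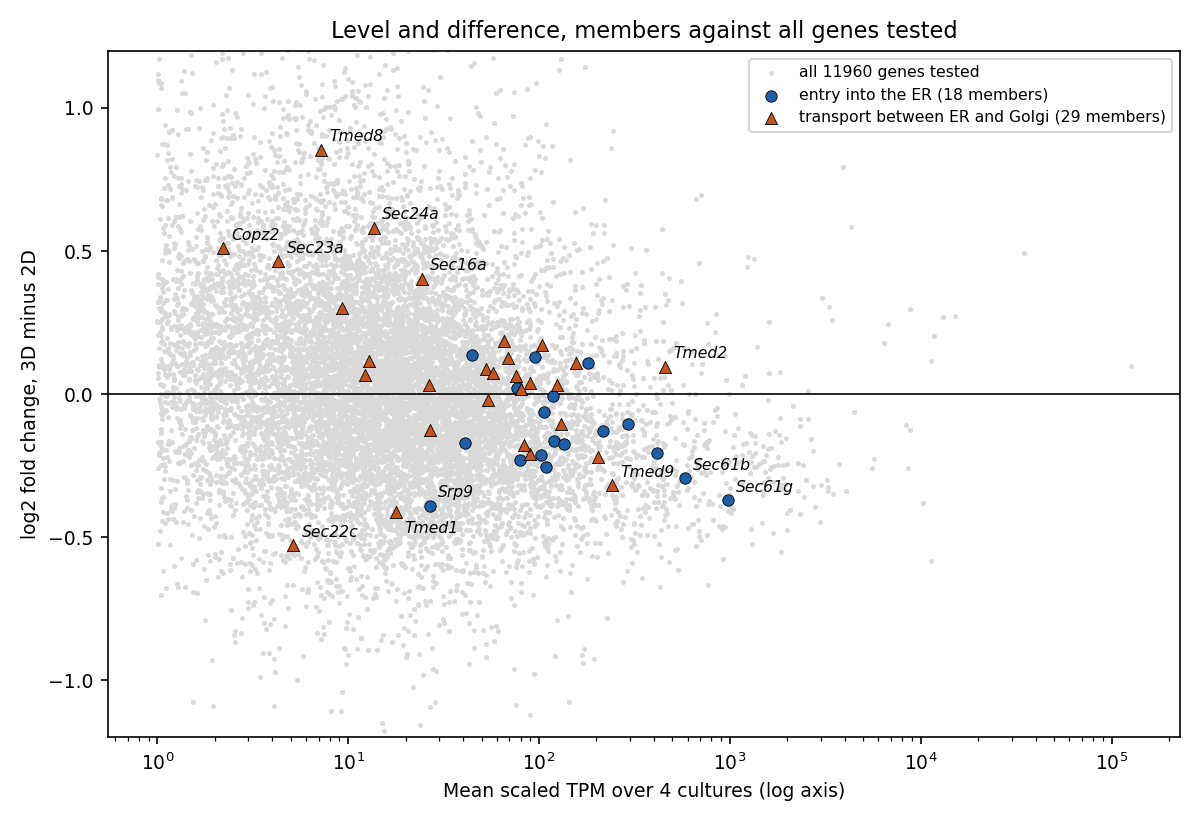
Log2 fold change (3D minus 2D) against mean scaled TPM over the 4 cultures (log axis), for the 18 entry members (blue circles), the 29 transport members (orange triangles) and all 11960 genes tested (grey). The axis leaves out 160 grey genes beyond 1.2 in size. Sec61g and Sec61b, at 975 and 578 scaled TPM, lie below 0, and the highest members, such as Tmed8 at 7.21 scaled TPM, lie at low levels.

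Outside the rule, a list of other genes of the pathway written from gene function had 96 genes tested, of which 7 were higher (7.29%, against 18.5% of all genes tested) and 26 lower (27.1%, against 19.4%) in 3D culture. Its median log2 fold change was -0.08, against -0.0031 over all genes tested. Of its 36 genes with at least 100 scaled TPM, 3 were higher (8.33%, against 11.7% of all genes tested at that level) and 12 lower (33.3%, against 39.8%), and of the 60 below it 4 were higher (6.67%, against 19.25%) and 14 lower (23.3%, against 17.2%). At the translocon, 2 of 8 partners fell (25%, against 19.4% of all genes tested) and none rose (at an unadjusted p below 0.05, 4 and 2). Hspa5, the ER chaperone BiP that pulls chains through the channel, had 1206 and 1144 scaled TPM in 2D and 851 and 931 in 3D (log2 fold change -0.40, limma adjusted p = 0.0125). Dnajb11, its J-domain partner, had 175 and 175.5 scaled TPM in 2D and 105 and 122 in 3D (log2 fold change -0.63, limma adjusted p = 0.00594). Each of these genes was lower in both 3D cultures. Sil1, Tram2 and Tram1 had positive log2 fold changes of 0.24, 0.58 and 0.07, and Dnajc3 one of -0.25, without passing. Srpra, of the SRP receptor, had a log2 fold change of 0.18 (limma adjusted p = 0.0651).

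Both catalytic subunits of the signal peptidase fell (2 of 2, against 19.4% of all genes tested and 39.8% of those with at least 100 scaled TPM). Of the accessory subunits, Spcs1 fell, Spcs2 was lower without passing, and Spcs3 ran the other way without passing. Sec11a had 177 and 185 scaled TPM in 2D and 153 and 143.5 in 3D (log2 fold change -0.29, limma adjusted p = 0.0174). Sec11c had 538.5 and 590.1 scaled TPM in 2D and 477 and 485 in 3D (log2 fold change -0.23, limma adjusted p = 0.0439). In the oligosaccharyltransferase, which glycosylates chains as they emerge, 3 of 11 fell (27.3%, against 19.4% of all genes tested) and 1 rose (9.09%, against 18.5%). The small subunits Ostc, Ost4 and Krtcap2 had log2 fold changes of -0.36, -0.29 and -0.22, and Rpn2 rose by 0.31, while the catalytic Stt3a and Stt3b had values of 0.10 and 0.15 that did not pass. In the insertion of tail-anchored and multi-pass proteins, 5 of 16 fell (31.25%, against 19.4% of all genes tested) and 1 rose (6.25%, against 18.5%). Emc4, Emc8 and Emc6, subunits of the ER membrane complex, had log2 fold changes of -0.42, -0.395 and -0.40, and Emc1 rose by 0.24. Get4 had a log2 fold change of 0.07 and did not pass.

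Among exit site and cargo receptor genes, 5 of 18 fell (27.8%, against 19.4% of all genes tested) and 1 rose (5.56%, against 18.5%). Lman1, a mannose-binding cargo receptor, had 115 and 98.2 scaled TPM in 2D and 128.5 and 137 in 3D (log2 fold change 0.32, limma adjusted p = 0.0386). Lman2l, a related lectin, had 26.75 and 26.6 scaled TPM in 2D and 18.6 and 19.1 in 3D (log2 fold change -0.48, limma adjusted p = 0.00564). These related receptors lay apart between the groups in opposite directions. Bcap31 and Cnih1 fell by 0.28 and 0.30 on the log2 scale, and Kdelr3 and Ergic2 had log2 fold changes of 0.21 and 0.10 without passing. Of 9 genes of the COPI and Arf group, 1 rose and 1 fell (11.1% each, against 18.5% and 19.4% of all genes tested). Arfgap1 rose by 0.25 and Arf5 fell by 0.31, whereas Gbf1, Arf4 and Arf1 had values of 0.03, -0.09 and -0.09 that did not pass.

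Among tethers, Rabs and SNAREs, 8 of 24 fell (33.3%, against 19.4% of all genes tested) and 1 rose (4.17%, against 18.5%). Gosr1, a Golgi SNARE, had 19.25 and 19.0 scaled TPM in 2D and 30 and 29.75 in 3D (log2 fold change 0.62, limma adjusted p = 0.00409). Bet1, another SNARE of the same traffic, had 53.9 and 53.2 scaled TPM in 2D and 34.7 and 37.7 in 3D (log2 fold change -0.555, limma adjusted p = 0.00515). The replicates of each group were close together in both genes, and the groups lay far apart. Trappc4 and Rab1b fell by 0.39 and 0.34 on the log2 scale, and Trappc6a and Gosr2 had log2 fold changes of 0.25 and 0.07 without passing. Of 7 secretory pathway transcription factors and sensors, 2 rose (28.6%, against 18.5% of all genes tested) and limma called 0 lower (also 0 at an unadjusted p below 0.05). Atf6 had 12.7 and 10.6 scaled TPM in 2D and 16.4 and 16.0 in 3D (log2 fold change 0.45, limma adjusted p = 0.0185). Ern1, the sensor that splices Xbp1 messenger RNA, had 8.55 and 6.88 scaled TPM in 2D and 11.1 and 11.5 in 3D (log2 fold change 0.50, limma adjusted p = 0.0198). Xbp1 itself had 137 and 135 scaled TPM in 2D and 150.3 and 155.5 in 3D, apart but not past the threshold (log2 fold change 0.16, limma adjusted p = 0.0572), and Atf6b had a log2 fold change of -0.12.

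**Figure D5:**
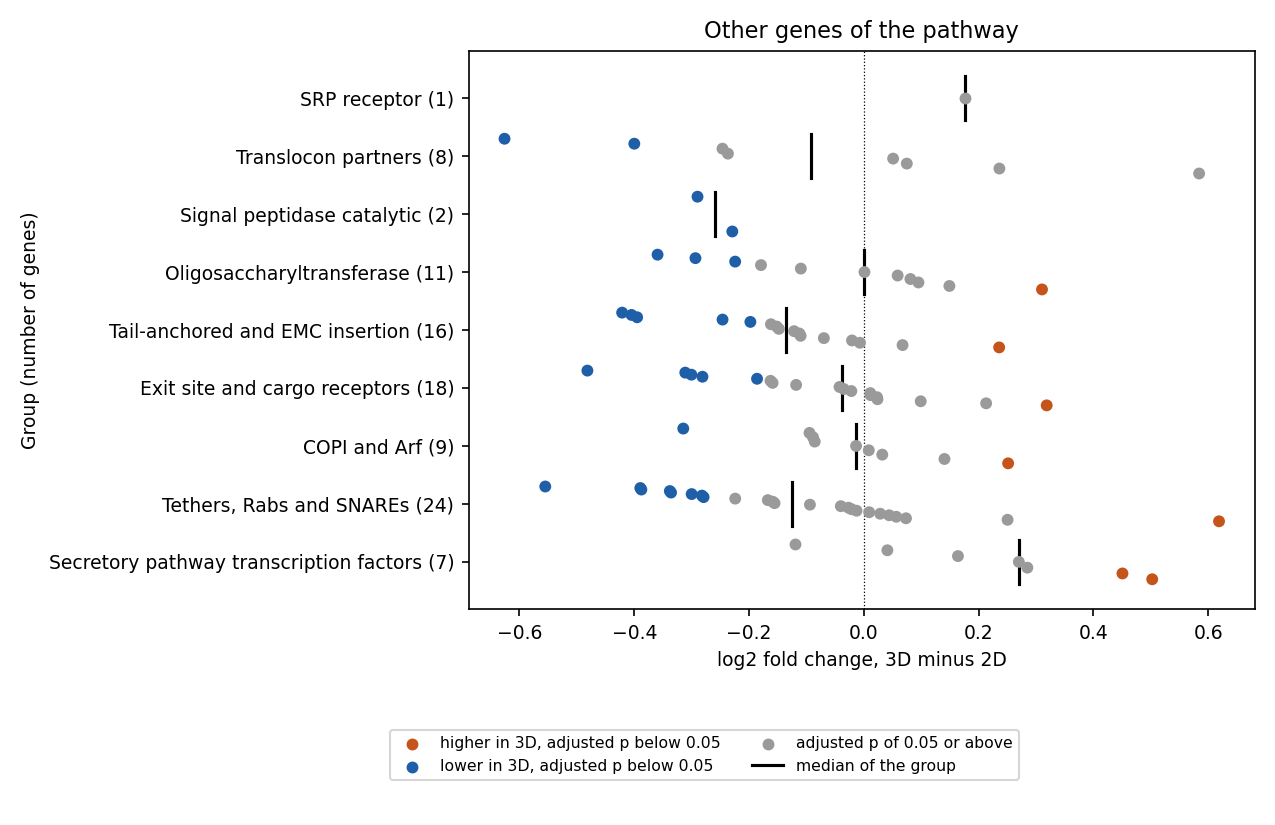
Log2 fold change (3D minus 2D) of the 96 other genes of the pathway by group, with a black line at each group's median. Orange points are the 7 genes higher and blue points the 26 genes lower in 3D culture at an adjusted p below 0.05, and the only group without a blue point and with more than 1 orange point is that of the transcription factors and sensors.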

How the data were processed

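Per the labels, polyadenylated RNA was sequenced from 4 cultures (stranded libraries, 75-base single-end reads). By their account, the authors quantified it per transcript with Salmon 1.2, after quality control with FastQC 0.11.8, against rat build rn4 plus human INS. Whether the deposited transcript names belong to that build was not checked. The deposited TPM sum to 1000000 in each sample and do not show the depth of a library. The TPM are written with decimal commas and were read as such.

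TPM were summed per symbol, genes with a mean of at least 1 TPM were kept, and samples were scaled by the TMM method (trimming 30% on log ratios and 5% on mean levels, each gene weighted alike). Log2(scaled TPM + 1) was tested with limma 3.58.1 in R 4.3.3 (empirical Bayes with trend, two-sided), adjusted by Benjamini-Hochberg over all genes tested. The study's count model needs counts, which TPM are not. Precision is that of 2 cultures per group.

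Steps follow the symbols. Values per culture are given for the most abundant member of a step, the largest rise and fall past the threshold and paralog pairs. From the pathway list, up to 3 genes with the smallest p per direction and group are named. Sec61b, Sec62, Sec16a, Srp19, Spcs3, Tmed4 and Tmed9 were added after their values were seen, as were the members given by fold change alone. The members and lists were chosen with earlier results of these data known. The transcripts carry Ensembl names, so coordinates and promoter windows come from RefSeq on GRCr8, matched by symbol, and not from the build used for quantification. Of the members, 11 have a named copy or pseudogene in GRCr8, 3 of them called, which leaves the division of their reads uncertain.

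Alternatives were no scaling, median of ratios scaling, no filter, a minimum mean of 5 TPM, a pseudocount of 0.1, a replicate block, no trend, an adjusted p below 0.01, the most abundant transcript of each symbol, and each culture left out in turn.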

Additional observations from a re-analysis of the deposited data

How the results depend on the processing

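No called member changed sign under any alternative. Without a filter on low values 2 members were higher (4.26%, against 9.71% of all genes) and 13 lower (27.7%, against 12.6%). Without trend 7 were lower (14.9%, against 17.3%). At an adjusted p below 0.01 in limma 1 was higher, 0 were lower and 1418 of all genes were called. At an unadjusted p below 0.05 the counts were 7 and 15 members, against 2988 and 3066 of all 11960 genes tested. With each culture left out in turn, where the lone culture is assumed to vary like the other group, members higher ran from 0 to 6, members lower from 0 to 12 and all genes called from 108 to 4456. In the replicate block 5 members were higher, 11 lower and 4814 genes called. The deviations of same-numbered cultures had a correlation of -0.006 across genes. With 2 cultures per group this is a single comparison, so it cannot show whether the numbers pair the cultures.

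Medians of the steps moved by more than the spread between cultures as follows. Without scaling they were -0.13 for SRP, -0.14 for Sec61, -0.012 for TRAP, -0.12 for the signal peptidase, 0.076 for Sec22, 0.14 for p24 and 6.1e-04 for COPI. Without the filter they were -0.21, -0.22, -0.093 and -0.20 for the entry steps, 0.059 for p24 and -0.078 for COPI. At a minimum of 5 TPM they were -0.031 for TRAP, -0.14 for the signal peptidase, 0.12 for p24 and -0.10 for COPI, and with the most abundant transcript 0.071 for Sec22. With each culture left out, they ran from -0.23 to -0.13 for Sec61, from -0.037 to 0.070 for Sec22, from 0.062 to 0.15 for p24 and from -0.071 to -0.013 for COPI. Without scaling the medians of all steps were higher, and without the filter all were lower. In both cases the factors between samples change, alike for every gene. At a minimum of 5 TPM these factors are recomputed too, and Copz2 and Sec23a drop out of their steps. What brings about the other shifts was not tested. TPM do not show how many reads stand behind a low gene such as Copz2.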

Other observations

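The difference between the cultures also went with the span of a gene on the genome. Across the 47 members, Spearman's rho between gene span on GRCr8 and log2 fold change was 0.43. Across the 10585 tested genes with a span (88.5%) it was 0.25. Both are descriptions across genes, which are not independent replicates. Level and span were not separated.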
